A study of Mus musculus with 4 samples.

Results

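The genes described here are 10 genes of de novo fatty acid synthesis, taken by symbol from the array annotation: Fasn, Acaca, Acacb, Acly, Scd1, Scd2, Elovl6, Me1, Srebf1 and Mlxipl. All 10 were measured, out of 18194 genes on the arrays. They were followed in epididymal fat, a visceral depot of male mice, in C57BL/6J animals put on their diets at 9 weeks of age and kept on them for 21 weeks. Both diets supplied 60% of energy as fat. The high-calcium whey diet held 1.8% calcium together with whey protein isolate, and the standard high-fat diet held 0.4% calcium, so calcium and whey protein were changed together and cannot be told apart. Of 10 mice per diet, 2 per diet were profiled, 1 array per mouse. By their labels, 2 arrays belong to the high-calcium whey group and 1 to the standard group. For the remaining array the labels do not settle the diet: the stated number of mice per diet would make it the second standard-diet mouse, whereas its wording is shared with a label of high-calcium replicate 2. It was therefore left out of both diet groups, and every difference and SE between diets rests on a standard group of 1. Its values are given beside the others, and where it is set against another array the comparison is between mice, not diets.

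De novo fatty acid synthesis turns surplus carbohydrate into fat. Citrate exported from mitochondria is split to acetyl-CoA, acetyl-CoA is carboxylated to malonyl-CoA, and fatty acid synthase condenses these units into palmitate with NADPH as the reductant. Elongases and desaturases then convert palmitate to longer and monounsaturated acids. The enzymes are under the shared transcriptional control of SREBP-1c, which responds to insulin, and ChREBP, which responds to glucose metabolites, and in fat tissue the pathway runs in the fat cells.

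Every value is a log2 signal of 1 probe set per gene, the probe set with the highest mean over the 4 arrays, and levels of different genes are not set against each other because probe sets differ in brightness. Signals brighter than the median of all probe sets on an array were counted as above background. All 10 genes were above background on all 4 arrays, as were 10463 genes in all. Fat cell markers checked the tissue: 10 of 10 measured markers were above background on the 3 arrays with a labelled diet, among them Adipoq (adiponectin) and Fabp4 (the fat cell fatty acid binding protein). The spread comes from the 2 high-calcium arrays and was taken to hold for the standard array too, so a difference between diets cannot be told apart from a difference between that mouse and the others. Each SE and interval uses a spread moderated by limma, which draws every gene towards a value common to all genes. An SE is thus not the spread between these 2 mice: for Me1 their SD was 0.03 and the SE 0.32.

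As deposited, most of the 10 genes had somewhat higher signals on both high-calcium whey arrays than on the standard array, and none of the differences passed the test. Of the 10 genes 7 were higher on both high-calcium arrays, 1 was lower on both and 2 were split, whereas over all genes 38.6% were higher on both and 23.9% were lower on both. Over the 10610 genes above background on the 3 labelled arrays these shares were 35.5% and 26.8%. The median log2 difference of the 10 genes was 0.24, against 0.08 for all genes, with 0.34 on replicate 1 and 0.13 on replicate 2. The limma test across 18194 genes called 0 genes at an adjusted p under 0.05 (0%), while 898 had an unadjusted p under 0.05, and with a trended, robust prior it called 6, none of them lipogenic. Of the 10 genes 0 were called, 0 had an unadjusted p under 0.05, and the lowest unadjusted p was 0.239. All 10 intervals at 95% spanned 0, and together they reached from 0.388-fold to 3.86-fold. Under the observed spread the test also missed simulated log2 differences as large as 4. A gene that did not pass is thus not shown to be unchanged. The direction of the group depended on how the arrays were scaled. The median difference turned to -0.07 with arrays centred on their medians and to -0.01 with centring on fat cell markers. After quantile normalization it stayed at 0.22, with all genes at -0.01. Centring on fat cell markers subtracted the median signal of the 10 markers on each array, which lay between Lep and Cidec. It left those markers with a median difference of -0.10. Those scalings moved the median of all genes to -0.24 and -0.18; since each shifts all genes of an array alike, the place of the lipogenic genes against that median, 8 of 10 above it, is the same under them by construction. It does depend on the probe sets: with all probe sets of each gene averaged, dim ones included, 4 of 10 were above the median of all genes, 2 were higher on both high-calcium arrays and 1 was lower on both, and the median difference was 0.04 against 0.14 for all genes.

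**Figure D1:**
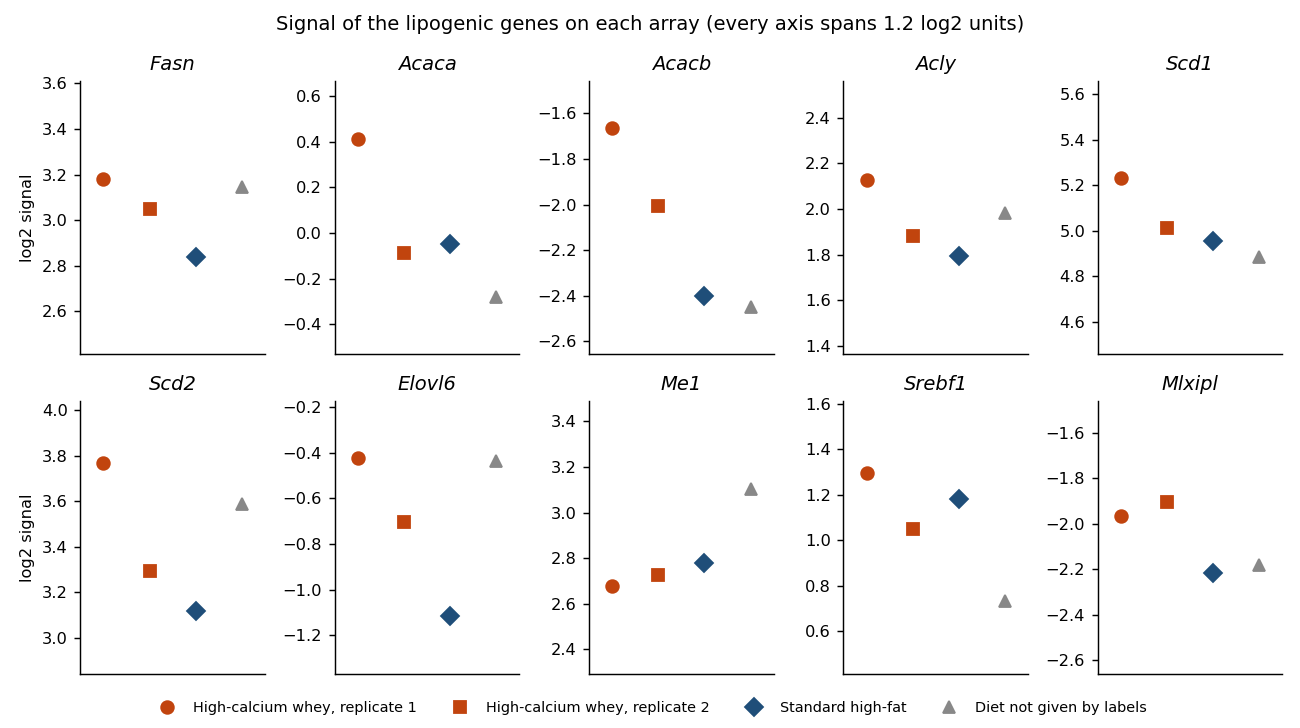
Log2 signal (y axis, 1.2 log2 units in every panel) of each of the 10 genes on the 4 arrays, 1 point per array, with circles and squares for high-calcium whey replicates 1 and 2, diamonds for the standard array and triangles for the array whose diet the labels do not settle. As deposited, 7 genes lie above the diamond on both high-calcium arrays and 8 have their highest point on replicate 1; with arrays centred on their medians 3 genes lie above it on both, and with centring on fat cell markers 2 do.

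The formation of acetyl-CoA and malonyl-CoA was followed through Acly, Acaca and Acacb. Acly, ATP citrate lyase, which makes cytosolic acetyl-CoA, had log2 signals of 2.13 and 1.88 on high-calcium replicates 1 and 2, 1.80 on the standard array and 1.98 on the array of open diet. The labelled arrays did not overlap between diets, but the gap between the 2 high-calcium mice (0.25) exceeded the difference of their mean from the standard array (0.21, SE 0.35). Acaca, the cytosolic acetyl-CoA carboxylase that makes malonyl-CoA for synthesis, had 0.41, -0.09, -0.05 and -0.28 on the arrays in the same order. Its difference was carried by replicate 1 alone, at 0.46 against -0.04 on replicate 2, and the groups overlapped. Acacb, the carboxylase at the mitochondrial surface whose malonyl-CoA restrains fatty acid oxidation, had -1.66, -2.01, -2.40 and -2.45. Both high-calcium arrays were above the standard array and the array of open diet lay beside the latter, with a mean of -1.84 ± 0.24 (SD, n = 2) and a difference of 0.57 (SE 0.37), or 1.48-fold with a 95% interval from 0.570-fold to 3.85-fold. With arrays centred on their medians the differences of Acly and Acaca turned to -0.11 each and with centring on fat cell markers to -0.05 each, while Acacb stayed positive at 0.25 and 0.31.

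Fasn, fatty acid synthase, the multifunctional enzyme that builds palmitate, had log2 signals of 3.18, 3.05, 2.84 and 3.14. The standard array was the lowest of the 4, and the array of open diet lay with the high-calcium arrays. The difference between diets was 0.28 (SE 0.33), a 1.21-fold change with a 95% interval from 0.522-fold to 2.80-fold, and it turned to -0.04 with arrays centred on their medians. Me1, cytosolic malic enzyme, which supplies NADPH for synthesis, was the gene lower on both high-calcium arrays. Its signals were 2.68, 2.72, 2.78 and 3.10, a difference of -0.08 (SE 0.32), and the highest value was on the array of open diet. A second Me1 probe set gave differences of -0.006 and -0.08 on the 2 replicates.

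Of the enzymes that modify palmitate, Elovl6 and Scd2 had the widest differences among the 10 genes after Acacb, and Scd1 had a smaller one. Elovl6, the elongase that extends palmitate to stearate, had log2 signals of -0.42, -0.70, -1.12 and -0.43. The standard array was the lowest by 0.41 or more, and the array of open diet was level with replicate 1. The difference between diets was 0.55 (SE 0.35), 1.47-fold with a 95% interval from 0.590-fold to 3.65-fold, and it remained positive, at 0.24, 0.30 and 0.53, with centring on array medians, with centring on fat cell markers and after quantile normalization. Scd2, a stearoyl-CoA desaturase that makes monounsaturated fatty acids, had 3.77, 3.30, 3.12 and 3.59. Replicate 1 exceeded replicate 2 by 0.47, more than the mean difference between diets of 0.41 (SE 0.41). Scd1, the major desaturase of fat and liver, had 5.23, 5.01, 4.95 and 4.88. Its difference was 0.17 (SE 0.34), from 0.28 on replicate 1 and 0.06 on replicate 2, and it turned to -0.15 and -0.09 with centring on array medians and on fat cell markers, while that of Scd2 stayed positive at 0.10 and 0.16.

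Of the transcription factors of the pathway, Srebf1 had the difference nearest 0 among the 10 genes, and Mlxipl lay above their median. Srebf1, which encodes SREBP-1a and SREBP-1c, had log2 signals of 1.29, 1.05, 1.18 and 0.73, so the standard array lay between the 2 high-calcium arrays and the array of open diet was the lowest. The difference was -0.01 (SE 0.35), with a 95% interval from 0.408-fold to 2.42-fold, and it turned to 0.006 after quantile normalization. Mlxipl, which encodes ChREBP, had -1.97, -1.90, -2.22 and -2.18. Here the 2 high-calcium arrays were within 0.06 of each other and above both remaining arrays, with a difference of 0.28 (SE 0.32) that turned to -0.03 with arrays centred on their medians.

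The 2 high-calcium mice differed from each other about as much as they did from the standard-diet mouse. The gap between them exceeded the mean difference between diets in 5 of the 10 genes, and its median was 0.24, against 0.25 over genes above background. On replicate 1 alone 9 of the 10 genes were higher than on the standard array and on replicate 2 alone 7 were, where 57.9% and 50.8% of genes above background were. Replicate 1 gave the larger difference in 8 of the 10 genes and the highest signal of the 4 arrays in 8, where 41.7% of genes above background on all 4 arrays had their highest signal on that array. The standard array was the lowest of the 4 in 5 of the 10 genes, namely Fasn, Acly, Scd2, Elovl6 and Mlxipl, against 22.9% of those genes. By size, 0 of the 10 genes were at least 1.5-fold higher on both high-calcium arrays, where 12.7% of all genes and 2.21% of genes above background were. Likewise 0 were that much lower on both, against 4.49% and 1.1%. On replicate 1 alone 3 of the 10 were past that fold (Acacb, Scd2 and Elovl6) and on replicate 2 alone 0 were. No share over all genes was computed for these 2 counts, for the larger difference on replicate 1 or for the gap. Those counts are thus not shown to be particular to the 10 genes.

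Differences within an array do not depend on an overall scaling factor, so each gene was also set against the median difference of the 10 genes on the same array. Acacb lay 0.40 above that median on replicate 1 and 0.26 above it on replicate 2, and Elovl6 lay 0.36 and 0.28 above it. On the other side Me1 was at -0.44 and -0.19 and Srebf1 at -0.23 and -0.26. Acacb and Elovl6 thus had larger differences than Me1 and Srebf1 on both high-calcium arrays. On the array of open diet Elovl6 again lay above the median difference, by 0.57, and Srebf1 below it, at -0.56, whereas Acacb was at -0.16 and Me1 at 0.21. All of these differences share the standard array.

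The arrays carry 23 probe sets for the 10 genes, and 17 of them exceeded background on all 4 arrays. Of these 17, 9 were higher on both high-calcium arrays, 2, both of Me1, were lower on both, and 6 were split. Over genes above background on the 3 labelled arrays, with 1 probe set each, 35.5% were higher on both and 26.8% lower on both. On replicate 1 alone 15 of the 17 were higher, and on replicate 2 alone 9 were, against 57.9% and 50.8% of those genes. For Elovl6 a second probe set gave differences of 1.44 and 0.60 on replicates 1 and 2, larger than those of the chosen one at 0.69 and 0.41. For Scd2 a second probe set gave 0.77 and 0.40, and the third, the dimmest, gave 0.69 and -0.69. For Scd1 the other probe set was split, at 0.35 and -0.44, and for Acly the other bright probe sets gave 0.10 and -0.01, and 0.54 and -0.01. The 6 probe sets not above background on all 4 arrays ranged in their differences from -3.97 to 1.62, and in the mean over all probe sets of a gene they turned the values of Acaca to -0.75 and of Elovl6 to -0.04.

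**Figure D2:**
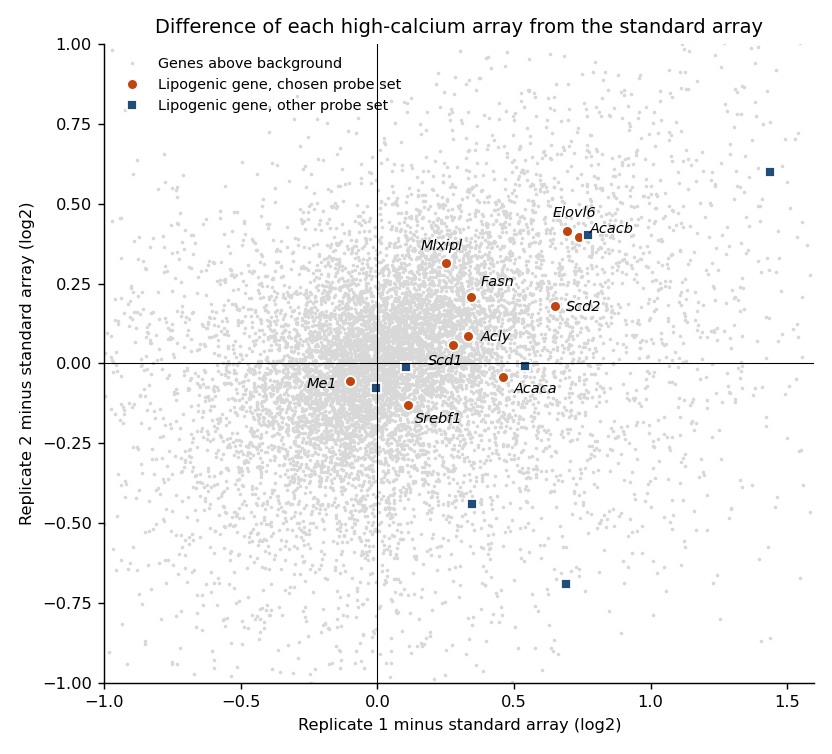
Log2 difference from the standard array on high-calcium replicate 1 (x axis) and replicate 2 (y axis), as deposited, for the 17 probe sets of the lipogenic genes above background (circles chosen, squares others) and for genes above background (grey dots, 420 of which lie outside the plotted range). Elovl6, Acacb, Scd2, Fasn, Mlxipl, Acly and Scd1 lie to the upper right of the origin; with arrays centred on their medians the mean differences of Fasn, Mlxipl, Acly, Scd1 and Acaca are negative, and with centring on fat cell markers those of Acly, Scd1 and Acaca are.

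The sign of the smaller differences depended on the scaling. Each centring shifts all genes of an array alike, so the mean differences that stayed positive under it are the largest as deposited. Centring on medians sets the background cut-off of every array level. With arrays centred on their medians Acacb, Elovl6 and Scd2 had positive mean differences, all of them on both high-calcium arrays, and the other 7 were negative. With arrays centred on fat cell markers 5 of the 10 had positive mean differences, and Acacb and Elovl6 were higher on both arrays. After quantile normalization 7 were again higher on both arrays and 1 was lower on both.

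**Figure D3:**
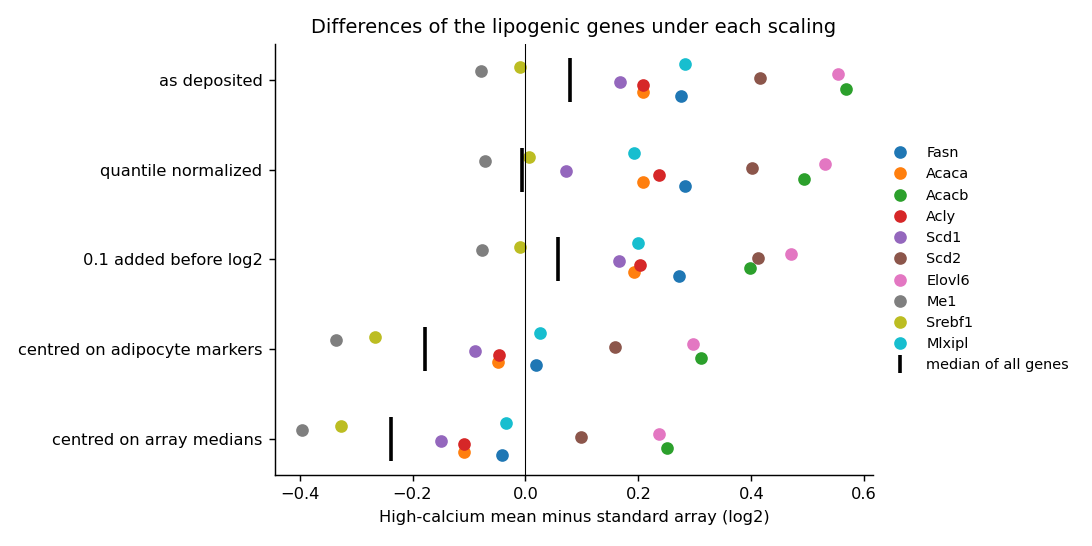
Mean log2 difference between the high-calcium arrays and the standard array (x axis) of each of the 10 genes, 1 coloured point per gene, under 5 scalings, with the median of all genes as a black bar. Acacb, Elovl6 and Scd2 lie above 0 under each of the 5, and Me1 lies below 0 under each. Centring on array medians turns Fasn, Acly, Acaca, Scd1 and Mlxipl to values below 0, and centring on fat cell markers turns Acly, Acaca and Scd1. Each centring shifts all genes of an array alike, so the genes left above 0 are those with the largest differences as deposited.

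Promoter sequence was available for 8 of the 10 genes, with 12 start sites, from RefSeq on GRCm38.p6 (250 bases before and 50 after each start); Scd1 and Scd2 were not in the table. In all, 5 motifs were searched on both strands: the E-box CACGTG, bound by ChREBP and USF proteins; a core of the sterol element, TCACNCCAC, bound by SREBPs; the CCAAT box, bound by NF-Y, a partner of SREBPs; the GC box GGGCGG, bound by Sp1; and the TATA box TATAAA. These occurred in 7.15%, 1.24%, 37.4%, 35.7% and 13.6% of the 32851 promoters of the table. The promoters of 4 genes that were higher on both high-calcium arrays as deposited (of which Fasn, Acly and Mlxipl turned negative with arrays centred on their medians, and Acly with centring on fat cell markers) are shown, because together they carry all of the motif types found. All matches are in capitals.
Fasn, chr11:120824498-120824797, minus strand: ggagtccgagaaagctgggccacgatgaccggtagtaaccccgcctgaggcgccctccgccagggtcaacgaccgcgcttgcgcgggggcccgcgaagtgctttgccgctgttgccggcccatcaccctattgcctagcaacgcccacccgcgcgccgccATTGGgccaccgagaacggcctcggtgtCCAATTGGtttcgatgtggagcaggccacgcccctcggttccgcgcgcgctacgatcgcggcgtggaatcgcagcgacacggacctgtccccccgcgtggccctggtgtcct
Acly, chr11:100527951-100528250, minus strand: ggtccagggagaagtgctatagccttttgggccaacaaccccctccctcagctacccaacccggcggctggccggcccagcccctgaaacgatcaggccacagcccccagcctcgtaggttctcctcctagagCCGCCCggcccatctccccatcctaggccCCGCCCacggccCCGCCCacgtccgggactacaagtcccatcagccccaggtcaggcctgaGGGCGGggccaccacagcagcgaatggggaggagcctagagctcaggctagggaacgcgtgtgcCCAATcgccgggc
Acacb, chr5:114165268-114165567, plus strand: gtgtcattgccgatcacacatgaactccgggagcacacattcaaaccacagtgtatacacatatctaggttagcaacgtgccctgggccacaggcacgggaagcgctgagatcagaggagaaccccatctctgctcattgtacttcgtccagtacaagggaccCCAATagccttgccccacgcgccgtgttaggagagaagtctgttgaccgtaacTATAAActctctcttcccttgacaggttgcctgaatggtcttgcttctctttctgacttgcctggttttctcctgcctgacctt
Mlxipl, upstream start, chr5:135089640-135089939, plus strand: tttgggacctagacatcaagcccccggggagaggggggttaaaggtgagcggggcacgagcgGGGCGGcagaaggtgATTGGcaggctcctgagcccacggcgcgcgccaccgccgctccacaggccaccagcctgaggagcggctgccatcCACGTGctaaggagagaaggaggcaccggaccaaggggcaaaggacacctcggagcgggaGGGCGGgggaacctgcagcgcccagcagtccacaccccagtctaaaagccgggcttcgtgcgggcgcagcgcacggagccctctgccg
Mlxipl, downstream start, chr5:135106641-135106940, plus strand: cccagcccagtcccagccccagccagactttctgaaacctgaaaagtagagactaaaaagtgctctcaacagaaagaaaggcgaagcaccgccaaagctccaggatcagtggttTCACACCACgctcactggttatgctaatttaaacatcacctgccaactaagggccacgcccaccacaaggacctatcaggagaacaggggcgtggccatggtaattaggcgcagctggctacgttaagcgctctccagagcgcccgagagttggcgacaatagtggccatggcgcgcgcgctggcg

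The Fasn window held 3 CCAAT boxes, 2 of which overlap on opposite strands, and no other motif searched. That of Acly held 4 GC boxes and 1 CCAAT box, and that of Acacb 1 CCAAT box and 1 TATA box. Mlxipl has 2 starts in the table, 17001 bases apart. The upstream window held the only E-box of the 12 windows, with 1 CCAAT box and 2 GC boxes, and the downstream window held the only sterol element core. ChREBP has an isoform made from an alternative first exon; the table does not name the isoforms, and the single Mlxipl probe set gives 1 value for the gene. The windows of Elovl6 and Acaca held none of the 5 motifs. A match describes letters in a window and says nothing of binding in these mice.

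Among 14 other measured genes of the transcriptional control of the pathway, 3 were higher on both high-calcium arrays and 5 were lower on both, with a median difference of -0.07. Usf2, an E-box factor that acts on the Fasn promoter, had log2 signals of -0.67, -0.64, -1.15 and -0.66 on the 2 high-calcium arrays, the standard array and the array of open diet, a difference of 0.50 (SE 0.32) that stayed positive, at 0.18, with arrays centred on their medians. Insig1, which retains SREBPs in the endoplasmic reticulum, had a difference of -0.26 (SE 0.32), and Srebf2, the SREBP of cholesterol synthesis, one of -0.25 (SE 0.32). Both were lower on each high-calcium array and under each scaling.

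As deposited, genes that supply citrate, acetyl-CoA and NADPH had a median difference on the other side of 0 from the synthesis enzymes; with arrays centred on their medians both were negative, at -0.41 and -0.07. Of 15 measured, 3 were higher and 8 lower on both high-calcium arrays, with a median of -0.10 and 0 passing the test. Dlat, a subunit of pyruvate dehydrogenase, had a difference of -0.51 (SE 0.35), from -0.64 on replicate 1 and -0.38 on replicate 2. Taldo1, transaldolase of the pentose phosphate pathway, had one of -0.41 (SE 0.33), and Me2, a mitochondrial malic enzyme, one of 0.58 (SE 0.32). Slc25a1, the mitochondrial citrate carrier, and Acss2, which makes acetyl-CoA from acetate, were chosen after their values were seen. They had differences of -0.38 (SE 0.34) and -0.29 (SE 0.32) and were lower on both high-calcium arrays under each of the 5 scalings. Acly and the citrate carrier, consecutive steps of citrate use, therefore had differences of opposite sign as deposited, at 0.21 and -0.38, and of the same sign with arrays centred on their medians, at -0.11 and -0.69, or on fat cell markers, at -0.05 and -0.63.

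Other elongases and desaturases were mixed: of 16 measured, 6 were higher and 2 lower on both high-calcium arrays, with a median of 0.16 that turned to -0.15 with arrays centred on their medians and to -0.09 with centring on fat cell markers. Fads1 and Fads2, the front-end desaturases of polyunsaturated fatty acid synthesis, differed mainly between the 2 high-calcium mice, with Fads1 at 1.64 on replicate 1 and -0.07 on replicate 2 and Fads2 at 2.23 and -0.71. Elovl7, an elongase of saturated acids, had a difference of 0.68 (SE 0.47). One gene of this list had an unadjusted p under 0.05, the dim Elovl2, and 0 passed the test.

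Subunits of AMPK, the kinase that phosphorylates and inactivates acetyl-CoA carboxylase, went in both directions. Of 10 genes of this list 6 were higher and 3 lower on both high-calcium arrays, with a median of 0.22 that turned to -0.09 with arrays centred on their medians and to -0.03 with centring on fat cell markers. Prkaa2, a catalytic subunit, had log2 signals of -2.88, -3.43, -2.04 and -2.34, a difference of -1.11 (SE 0.44). Both high-calcium arrays were below both other arrays, and the difference stayed negative under each scaling, from -0.68 to -1.43. The regulatory subunit Prkab2 had a difference of 0.86 (SE 0.52), made up of 1.22 and 0.50 on the 2 replicates, and Prkag3 had one of 0.68 (SE 0.71), made up of 1.25 and 0.11. None of them passed the test.

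The mitochondrial type II pathway of fatty acid synthesis, which makes the precursor of lipoate, had a median difference of 0.002 over 7 genes, 3 of them higher and 2 lower on both arrays, which turned to -0.32 with arrays centred on their medians, to -0.25 with centring on fat cell markers and to -0.01 after quantile normalization. Oxsm, its condensing enzyme, had a difference of -0.50 (SE 0.39), Acsf3, a malonyl-CoA synthetase, one of 0.52 (SE 0.32) and H2-Ke6, a dehydrogenase subunit of the pathway, one of 0.54 (SE 0.34). ChREBP targets outside the synthesis enzymes had a median of -0.01 over 8 genes, 2 of them higher and 1 lower on both arrays. Txnip, a glucose-responsive arrestin protein, had a difference of -0.12 (SE 0.32) and Slc2a4, the insulin-responsive glucose transporter, one of 0.35 (SE 0.37). Arntl, a core clock factor, had one of -0.10 (SE 0.83), from 0.59 on replicate 1 and -0.78 on replicate 2. Tkfc had an unadjusted p under 0.05 in this list and was not above background on the 3 labelled arrays, and 0 genes passed the test.

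**Figure D4:**
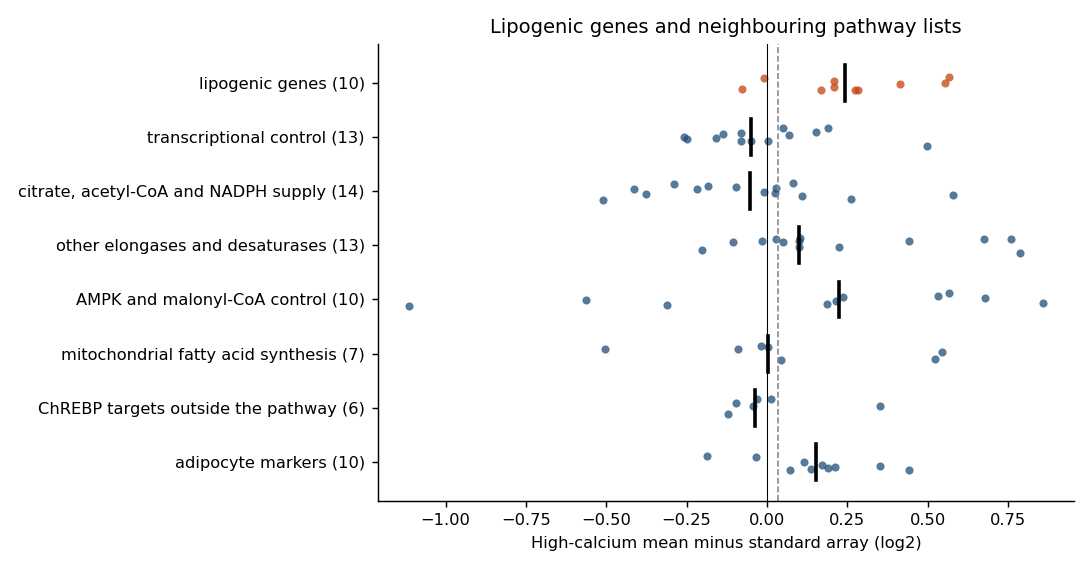
Mean log2 difference between the high-calcium arrays and the standard array (x axis), as deposited, 1 point per gene above background on the 3 labelled arrays, for the 10 lipogenic genes, 6 pathway lists and fat cell markers, with the number of genes in brackets, the list median as a black bar and the median of genes above background as a dashed line. The lipogenic genes have a median of 0.24 and fat cell markers one of 0.15. With arrays centred on their medians these turn to -0.07 and -0.16, and with centring on fat cell markers to -0.01 and -0.10.

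Fat cell markers were themselves slightly higher on the high-calcium arrays as deposited, with a median difference of 0.15 over 10 genes (6 higher and 1 lower on both arrays). It turned to -0.16 with arrays centred on their medians and to -0.10 with centring on the median signal of these markers. Lep, the hormone leptin, had a difference of 0.44 (SE 0.32), Fabp4 one of 0.17 (SE 0.33) that turned to -0.15 with arrays centred on their medians, Adipoq one of -0.03 (SE 0.33) and Pparg, the master factor of adipogenesis, one of -0.19 (SE 0.33). In such bulk samples fewer fat cells and less RNA per fat cell cannot be told apart. The summed signal of the fat cell markers was 184 and 171 on high-calcium replicates 1 and 2, 163 on the standard array and 155 on the array of open diet.

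Markers of other cells also moved with the arrays, here as deposited. The smooth muscle list was higher on replicate 1 for 8 of 8 genes and had summed signals of 61.5, 9.00, 10.1 and 7.27, the macrophage list was lower on replicate 1 for 9 of 9 genes (35.2, 56.8, 54.2 and 56.7), and B-cell genes were higher on replicate 1 for 5 of 5 (2.73, 0.546, 0.705 and 0.482). The endothelial list was lower on both high-calcium arrays for 7 of 8 genes (5.27, 4.61, 7.95 and 4.57), brown and beige fat genes for 6 of 8 (1.97, 2.15, 2.83 and 2.29), and mesothelial genes were higher on both for 5 of 6 (4.998, 2.10, 1.75 and 2.33). Of 8 genes of the epididymal duct and testis, 3 were lower and 1 was higher on both high-calcium arrays, 3 had an unadjusted p under 0.05 in the limma fit and 2, Lcn5 and Lcn8, were under background on every array. Their summed signals were 12.2, 0.797, 8.35 and 1.17, but they did not move together: Defb42 was 6.47 log2 units above the standard array on replicate 1, whereas Lcn2 and Adgrg2 had differences of -3.16 and -2.84, and Mmp7 was above background on the standard array and not on either high-calcium array. The part of these cells in the differences of the lipogenic genes was not tested.

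The genes whose pattern came closest to the median pattern of the 10 lipogenic genes were Usp6nl, Trmt10a, Alg2, 4930453N24Rik and Med15. Closeness was the root mean square difference of log2 signals centred on each gene's own mean over the 4 arrays, and it ran from 0.006 for Usp6nl to 0.015 for Med15. Of 10453 other genes above background, 1110 came within 0.1, so 4 arrays do not single out a small group. Among the lipogenic genes themselves Acly (0.047), Scd1 (0.066) and Fasn (0.086) followed the median pattern most closely, and Me1 (0.25) and Acacb (0.21) least.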

How the data were processed

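Epididymal fat RNA from 4 mice was hybridised to Affymetrix mouse arrays of 45101 probe sets. Each deposited intensity is the linear signal of 1 probe set. The submitters' processing notes name RMA without a version, but the values are linear with a lowest value of 0.01 times the array median. How the authors scaled these intensities is unknown. Intensities were log2 transformed with no added constant or further normalization. The platform annotation gave 1 symbol for 34958 probe sets, several for 932 and none for 9211. Probe sets under several symbols were not used. Background was the array median, under which 88.6% to 97.7% of 44 olfactory receptor probe sets lay.

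The diets were compared by lmFit and eBayes (limma 3.58.1, R 4.3.3) over 18194 genes, two-sided, with Benjamini-Hochberg adjustment at 0.05, and 2.38 degrees of freedom after moderation. The number of arrays limits the precision. The procedure was tested on simulated data. The genes and lists were chosen with earlier results of these data known. The genes named are the 10 members, fixed fat cell markers, the 5 nearest patterns and 3 of each pathway list. Those 3 were above background on the 3 labelled arrays and had the widest differences. Slc25a1, Acss2, Elovl2, Tkfc, Cidec, Lcn5, Lcn8, Defb42, Mmp7, Lcn2 and Adgrg2 were singled out after their values were seen. Lists were matched by symbol or synonym. Alternatives covered probe set choice, dim genes, scaling, an added constant of 0.1, the limma prior and each high-calcium array left out in turn. Figures used matplotlib 3.10.9 under Python 3.11.15.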

Additional observations from a re-analysis of the deposited data

Results flagged for a closer look

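On the array of open diet Elovl6 exceeded its standard-array signal by 0.683 log2 units, the only one of the 10 lipogenic genes to do so by at least 1.5-fold. It drew attention because that array belongs to neither diet group. Its log2 signal of -0.43 lay beside that of high-calcium replicate 1, at -0.42. Of the 10 genes 6, Elovl6 included, were higher there than on the standard array and 4 were lower. Of all 18194 genes 8514 were higher there and 9679 were lower.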

How the results depend on the processing

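The test called 0 genes as deposited, 96 (61 higher and 35 lower) with arrays centred on their medians and 6, all lower, with limma's trended, robust prior; none of the 10 lipogenic genes was among them, and the other 8 alternatives with a test called 0. With arrays centred on their medians the fit had 18194 degrees of freedom and gave each of the 10 genes the same SE, 1.06. Its calls therefore rest on the size of a difference alone, with no use of a gene's own spread. The median difference of the lipogenic genes, 0.24, was 0.042 with a gene's probe sets averaged, -0.075 with arrays centred on their medians and -0.015 with centring on fat cell markers. It ranged from 0.13 to 0.34 when 1 high-calcium array was left out, which leaves no test. With arrays centred on their medians Fasn (-0.042), Acaca (-0.11), Acly (-0.11), Scd1 (-0.15) and Mlxipl (-0.034) turned negative, and with centring on fat cell markers Acaca (-0.048), Acly (-0.048) and Scd1 (-0.090) did. With probe sets averaged Acaca (-0.75) and Elovl6 (-0.035) turned negative. Single probe sets of Acaca (-1.70), Acly (-1.84), Elovl6 (-1.68) and Scd1 (-0.047) were negative, and Srebf1 turned to 0.0056 after quantile normalization. Without replicate 1 Acaca turned to -0.042, and without replicate 2 Srebf1 turned to 0.11. The other 98 values recomputed for single genes and probe sets, with both high-calcium arrays kept, kept their direction. Many of them could not change. The trended, robust prior and the filter on mean signal leave each difference as it was. Other rules for choosing 1 probe set per gene picked the same probe sets for the 10 genes. Their agreement is therefore no separate support for a direction. The cause of these reversals was not tested. No paired analysis was made because the labels pair no mouse of one diet with a mouse of the other.

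Signal over background limits the 6 probe sets of these genes that were not above background on all arrays. Single high-calcium arrays differed from the standard array by -3.97 to 1.62 on them, and by -0.69 to 1.44 on the 17 others. Of the 10 genes, 7 were above the standard array without replicate 1 and 9 without replicate 2.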
